A study of Proteus anguinus with 14 samples.

Results

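Albumin (ALB), apolipoproteins B and A2 (APOB, APOA2) and the inter-alpha-trypsin inhibitor heavy chains 2 and 3 (ITIH2, ITIH3) are proteins of the blood plasma. Their transcripts were examined in the olm (Proteus anguinus), a blind cave salamander. The genes were chosen by the symbol that the functional annotation gave to each assembled gene. Of 10 symbols looked for, 5 matched at least 1 of the 18924 genes in the expression table. APOA1, APOA4, APOE, APOH and ITIH1 matched none and were not analysed here. ALB matched 2 genes, and the one with the higher mean level was used. The genes are listed as TRINITY_DN830_c1_g2_i1 (ALB), TRINITY_DN12660_c0_g1_i2 (APOB), TRINITY_DN54067_c0_g1_i1 (APOA2), TRINITY_DN19057_c0_g1_i1 (ITIH2) and TRINITY_DN1270_c1_g1_i34 (ITIH3). All 5 passed the filter on low values.

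The study sequenced mRNA from 6 organs of 3 olms to obtain a transcriptome of the species and to find the genes that mark each organ. The 14 samples comprised liver and lung of animals p4, p5 and p6, gut of p4 and p5, and brain, heart and skin of p4 and p6. All animals had been flushed out of caves, were kept in darkness, served as non-infected controls of an infection experiment and were euthanized with pentobarbital, and the organs were stored in RNAlater. The sources used here give neither age nor sex, and the samples carried no treatment contrast, so organs are compared with each other. Each sample was a whole piece of organ, in which fewer cells of a type and less RNA per cell cannot be told apart.

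In vertebrates, hepatocytes secrete most of the plasma proteins. ALB carries fatty acids, hormones and other ligands and maintains the osmotic pressure of the blood. APOB is the structural protein of the large lipid-carrying particles, which hepatocytes release as very low-density lipoproteins and enterocytes as chylomicrons after a meal. APOA2 is a protein of the high-density lipoproteins. ITIH2 and ITIH3 are secreted heavy chains that become linked to the small inhibitor bikunin and can be transferred onto hyaluronan, which they help to hold together in the extracellular matrix. These roles are known from mammals.

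Levels are given as TPM, the share of a transcript among 1000000 transcripts after correction for transcript length, divided by 1 factor per sample that sets the samples to a common median ratio over 13067 genes (normalized TPM). The factors were 0.734 to 0.768 in liver, 0.519 to 0.740 in lung, 0.974 and 1.02 in gut, 2.14 and 2.15 in brain, and 1.06 to 1.46 in heart and skin. The globin gene annotated as HBE1 took 41.4% to 53.4% of the TPM in lung, 2.86% to 6.71% in liver and 0.399% to 13.4% in the other organs. The organ names of the titles were used because another label field exchanges liver with lung and gut with heart. The 5 lung epithelium markers in the table summed to 243 to 434 normalized TPM in lung and to at most 39.7 in other organs. Most of the lung sum was SLC34A2, with 393, 192 and 237 in p4, p5 and p6. The 39.7 was reached in the p5 liver, where SLC34A2 had 35.5, against 4.15 and 3.36 in the p4 and p6 livers. SFTPB, a surfactant gene, and NKX2-1 were also higher in each lung than in any other sample. ABCA3 was higher in heart (17.9 and 6.02) than in lung (at most 0.314), and NAPSA was 0 in every lung. The 19 hepatocyte markers that encode no secreted protein summed to 3542 to 6678 normalized TPM in liver, 158 to 913 in lung, 345 to 500 in gut and 74.5 to 654 in brain, heart and skin. Of the hepatocyte markers, none was at 0 in all liver or all lung samples. The 11 enterocyte markers summed to 6354 to 7002 normalized TPM in gut and 1289 to 1330 in heart. Most of the heart sum was LGALS4, with 1312 and 1272 in the p4 and p6 heart. LGALS4 was lower in the p4 and p5 gut, at 422 and 1166. The 6 muscle markers summed to 16.6 to 30.5 in gut and 23130 to 42529 in heart. These sums thus followed the titles for liver and lung and for gut and heart.

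ALB, APOA2, ITIH2 and ITIH3 were highest in the 3 liver samples, where they did not overlap with any other organ. The share of all genes without such overlap between organs was not computed, here or in the comparisons below. APOB was high in both liver and gut, and these 2 organs overlapped. ALB ranked as the 2nd most abundant transcript of each liver sample and took 12.5%, 6.74% and 5.70% of the TPM in the p4, p5 and p6 livers. APOA2 ranked 3rd, 4th and 3rd. The 5 genes together made up 17.6%, 9.66% and 9.73% of the liver TPM, against 0.888% and 0.446% in the p4 and p5 gut and 0.0234%, 1.99% and 1.23% in the p4, p5 and p6 lung.

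ALB reached 165442, 87827 and 77664 normalized TPM in the p4, p5 and p6 livers, against 313, 17819 and 13305 in the lungs of the same animals, 48.9 and 163 in the p4 and p5 gut, 21.2 and 107 in the p4 and p6 brain, 103 and 18.3 in the p4 and p6 heart and 615 and 54.3 in the p4 and p6 skin. The lowest liver sample was 4.36 times the highest lung sample. The lung samples were far apart, that of p4 lying within the range of brain, heart, skin and gut while those of p5 and p6 lay well above it. The second gene annotated as ALB was a minor transcript with 30.1, 37.7 and 25.5 normalized TPM in the p4, p5 and p6 livers, or 0.0182% to 0.0430% of the main one.

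APOB reached 4781, 3650 and 2804 normalized TPM in the p4, p5 and p6 livers and 3394 and 3189 in the p4 and p5 gut, so that both gut samples lay inside the range of the liver samples. It reached 16.1, 717 and 520 in the p4, p5 and p6 lungs, and 0.535 to 17.7 in the 6 brain, heart and skin samples. APOA2 reached 49271, 29843 and 45372 in the p4, p5 and p6 livers, against 5160 and 1210 in the p4 and p5 gut, 94.7, 7578 and 5952 in the p4, p5 and p6 lungs, and 8.29 to 237 in brain, heart and skin. In contrast to APOB, APOA2 in gut stayed below every liver sample and overlapped with the lung samples.

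ITIH2 reached 10535, 2670 and 5434 normalized TPM in the p4, p5 and p6 livers, against 20.8, 480 and 344 in the lungs of the same animals, 1.03 and 3.16 in the p4 and p5 gut, and 1.69 to 37.1 in brain, heart and skin. ITIH3 reached 2574, 1776 and 1324 in the p4, p5 and p6 livers, against 6.28, 310 and 227 in the lungs, 96.9 and 9.26 in the p4 and p5 gut, and 0.607 to 8.61 in brain, heart and skin. Liver p4 was the highest of the liver samples for all 5 genes. The gut separated the heavy chains. ITIH2 was at the low level of brain and heart there, whereas ITIH3 in both gut samples exceeded every brain, heart and skin sample.

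**Figure D1:**
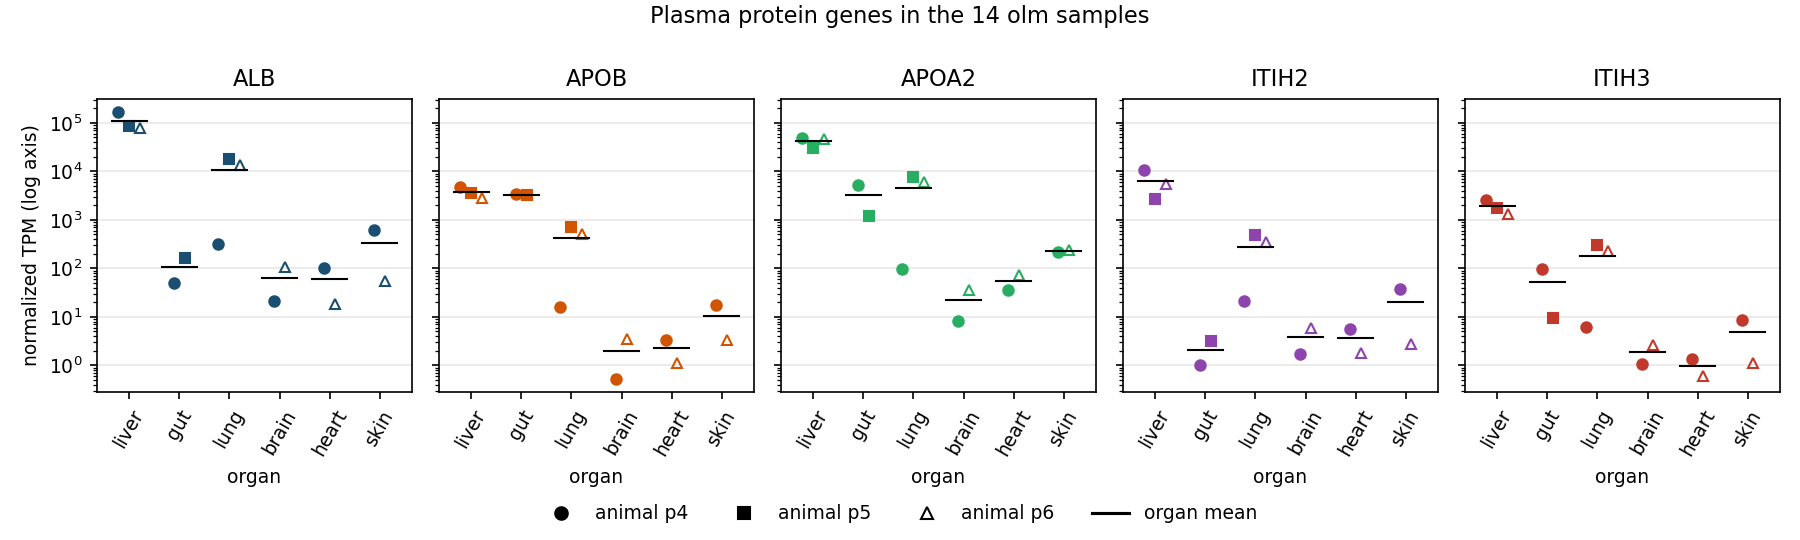
Normalized TPM, on a log axis, of ALB, APOB, APOA2, ITIH2 and ITIH3 in each of the 14 samples, by organ, with the animal p4, p5 or p6 shown by the marker. The 3 liver samples are above every other sample except for APOB in gut, and the p5 and p6 lung samples are above the p4 lung sample for all 5 genes.

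When liver was tested against all 11 other samples combined, 4 of the 5 genes were higher. The test was limma on log2(normalized TPM + 1), and a gene was called at an adjusted p below 0.05 over all 16317 genes tested and a log2 fold change above 1. Under this rule 2.29% of all genes tested were called higher in liver. The log2 fold change was 8.82 for ALB (SE 1.78, limma adjusted p = 0.0113), 8.70 for ITIH2 (SE 1.50, limma adjusted p = 0.0037), 7.37 for ITIH3 (SE 1.50, limma adjusted p = 0.0120) and 7.12 for APOA2 (SE 1.78, limma adjusted p = 0.0469). For APOB it was 6.54 (SE 2.28) with a limma adjusted p of 0.240. The median over the 5 genes was 7.37, that over all genes tested -0.061. The gut samples stood with the other organs in this comparison. With 1 coefficient per organ, liver was set against the equally weighted mean of the other organs. This gave a log2 fold change of 6.76 and a limma adjusted p of 0.00038 for APOB. That fit took the spread within organs only, so its p-value does not measure the same spread.

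ITIH2 passed the test in all 26 alternatives. The other calls rested on few samples. ALB was lost when the liver sample of p4, p5 or p6 was left out (limma adjusted p = 0.0929, 0.0537 and 0.0628). ITIH3 was lost in the same 3 cases (limma adjusted p = 0.0972, 0.0606 and 0.0632). APOA2 was lost without any single liver sample (limma adjusted p = 0.140 to 0.223) and without any 1 of 6 others, with limma adjusted p values between 0.0663 and 0.0766, and a block by animal gave a limma adjusted p of 0.0817 with the animals of the titles and 0.0971 with those of the study's sample table. APOA2 was also lost with a pseudocount of 0.1 (limma adjusted p = 0.0549), without the filter on low values (limma adjusted p = 0.0516) and with quantile normalization (limma adjusted p = 0.0572).

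Liver against lung alone showed higher values in liver for all 5 genes, of which 2 passed the test. These were ITIH2 with a log2 fold change of 5.12 (SE 1.11, limma adjusted p = 0.0167) and APOB with 4.30 (SE 1.11, limma adjusted p = 0.0425), where 3.26% of all genes were called. The log2 fold changes of APOA2, ALB and ITIH3 were 4.64, 4.63 and 4.51 with limma adjusted p values of 0.0595, 0.0790 and 0.0532. The p4 lung sample was more than 10-fold below the other lung samples, and no lung sample reached any liver sample. All 5 genes passed without the p5 lung sample, none without the p4 or the p6 liver sample, where all 5 still had an unadjusted p below 0.05 by limma. APOB also did not pass without any single brain, heart or gut sample, with limma adjusted p values of 0.0534 to 0.0587, nor without the p5 liver sample (limma adjusted p = 0.0787), nor with a block by the animal of the sample table (limma adjusted p = 0.0601). ITIH3 passed without either gut sample (limma adjusted p = 0.0427 and 0.0426 without p4 and p5) and APOA2 without the p4 or the p6 lung sample (limma adjusted p = 0.0480 and 0.049999).

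**Figure D2:**
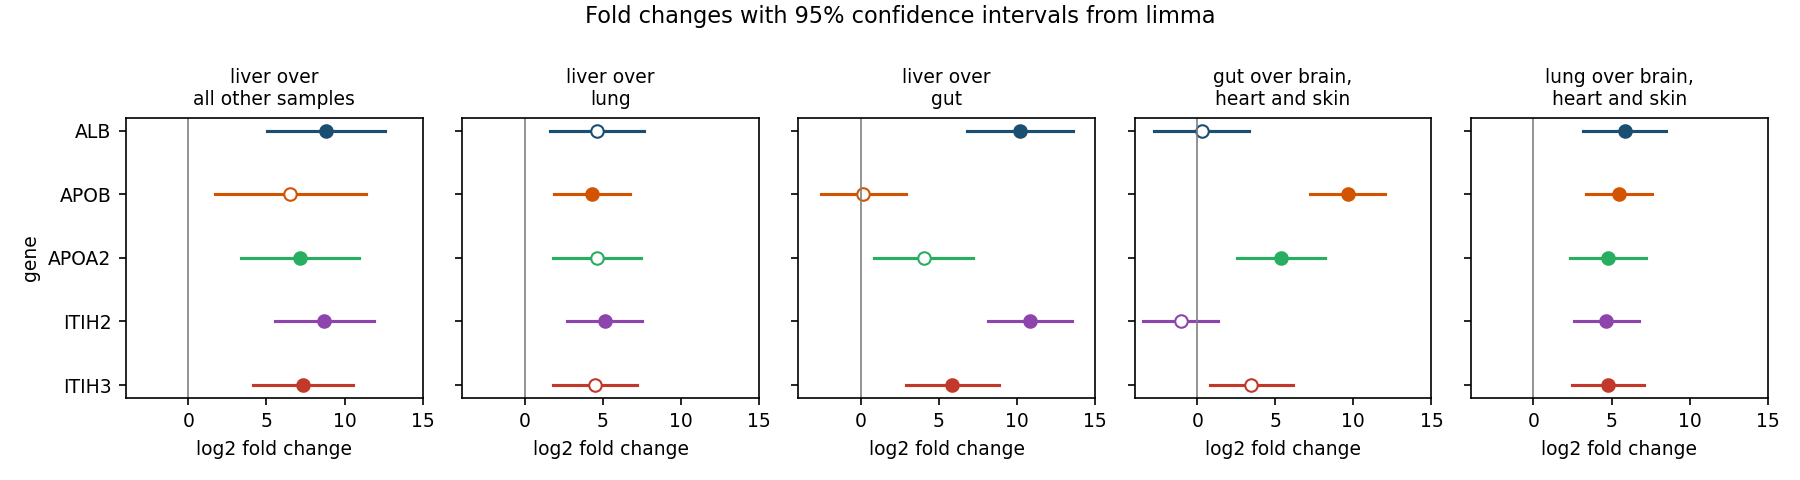
Log2 fold change of the 5 genes in the 5 comparisons, with bars for the 95% confidence interval of limma, filled where the gene was called and open where it was not. APOB in liver against gut lies at 0.15 with an interval of -2.56 to 2.86, whereas ALB and ITIH2 lie above 10 there.

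The gut was set against liver because enterocytes and hepatocytes are the cells known to assemble APOB-containing lipoproteins. APOB did not pass the test between these organs, with a log2 fold change of 0.15 (SE 1.25, limma adjusted p = 0.978) and a 95% confidence interval of -2.56 to 2.86, so that differences of several fold in either direction remained possible. APOA2 was higher in every liver sample than in gut, with a log2 fold change of 4.02 (95% confidence interval 0.86 to 7.18), but did not pass after adjustment (limma adjusted p = 0.142). ALB, ITIH2 and ITIH3 were higher in liver, by 10.17 (SE 1.56, limma adjusted p = 0.00141), 10.85 (SE 1.24, limma adjusted p = 0.000186) and 5.85 (SE 1.37, limma adjusted p = 0.0209) on the log2 scale. In this comparison 3.31% of all genes tested were called higher in liver. The call of ITIH3 was lost without the p5 gut (limma adjusted p = 0.203) or the p4 liver sample (limma adjusted p = 0.0654) and with a block by the animal of the sample table (limma adjusted p = 0.0538) or a fit on liver and gut only (limma adjusted p = 0.0606). APOA2 passed without the p4 lung sample (limma adjusted p = 0.00213) and without the p5 and p6 lung samples (limma adjusted p = 0.00445), which enter the fit through the shared spread.

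As a percentage of the liver mean, APOB amounted to 90.6% and 85.1% in the p4 and p5 gut and APOA2 to 12.4% and 2.92%. The mean in gut was 3291 ± 145 normalized TPM (SD, n = 2) for APOB, against 3745 ± 992 (SD, n = 3) in liver, and 3185 ± 2793 for APOA2, against 41495 ± 10278 in liver. ITIH3 amounted to 5.13% and 0.490% of the liver mean in the p4 and p5 gut. ALB and ITIH2 were at 0.0443% and 0.0166% of it in the p4 gut and 0.147% and 0.0509% in the p5 gut. The p4 gut was thus the higher sample for APOB, APOA2 and ITIH3 and the lower one for ALB and ITIH2. Without scaling, on the deposited TPM, APOB in gut was 116% of the liver mean.

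Expressed relative to each other, APOA2 was 1.52 and 0.380 times APOB in the p4 and p5 gut, against 10.3, 8.18 and 16.2 times APOB in the p4, p5 and p6 livers. ALB was 0.0144 and 0.0510 times APOB in the p4 and p5 gut and 34.6, 24.1 and 27.7 times APOB in the livers. The p5 gut was the only sample of the 14 in which APOB exceeded APOA2. APOB and APOA2 together made up 0.873% and 0.429% of the TPM in the p4 and p5 gut, against 4.09%, 2.57% and 3.53% in the livers.

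**Figure D3:**
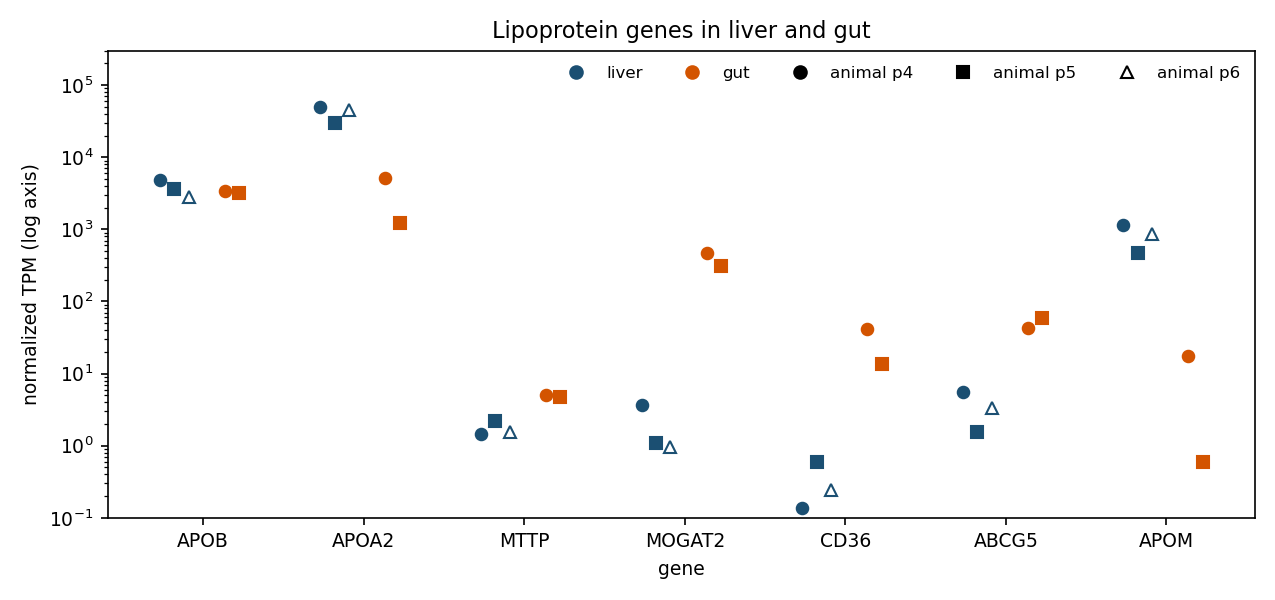
Normalized TPM, on a log axis, of APOB, APOA2 and further genes in the 3 liver and the 2 gut samples, with the animal shown by the marker. The APOB points of gut, 3394 and 3189, lie between the lowest and the highest liver sample, and the APOA2 points of gut lie below liver.

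Against brain, heart and skin, the gut was higher in APOB and APOA2. APOB differed by 9.63 on the log2 scale (SE 1.11, limma adjusted p = 0.000108) and APOA2 by 5.38 (SE 1.30, limma adjusted p = 0.0139), in a comparison in which 6.61% of all genes tested were called higher in gut. Both gut samples were above every brain, heart and skin sample for both genes. ITIH3 had a log2 fold change of 3.46 and did not pass (limma adjusted p = 0.0811). ALB and ITIH2 did not pass either, with log2 fold changes of 0.29 and -1.07 (limma adjusted p = 0.920 and 0.573). The call of APOA2 was lost without the p4 gut sample (log2 fold change 4.34, limma adjusted p = 0.129). ITIH3 passed without the p4 lung sample (limma adjusted p = 0.00789) and in a fit on gut, brain, heart and skin only (limma adjusted p = 0.0348).

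Among the genes of lipoprotein assembly, lipid uptake and lipoprotein receptors, 15 of 34 listed were found and 13 tested. In gut against brain, heart and skin, 5 were higher and 2 lower, where 6.61% of all genes were called higher and 6.66% lower, with a median log2 fold change of 0.83 against -0.11 over all genes tested. MOGAT2, the enterocyte enzyme that rebuilds triglycerides from absorbed monoglycerides, had 467 and 310 normalized TPM in the p4 and p5 gut and 0 to 2.02 in brain, heart and skin (log2 fold change 7.76, limma adjusted p = 1.68e-07). ABCG5, a subunit of the sterol exporter of the gut and bile surface, had 43.0 and 59.9 in gut and at most 0.522 in brain, heart and skin (log2 fold change 5.52, limma adjusted p = 3.94e-07). MTTP and CD36, which were picked after their values were seen, were also higher in gut. MTTP loads lipid onto APOB and reached only 4.998 and 4.750 normalized TPM in the p4 and p5 gut, while CD36, a fatty acid receptor, reached 41.4 and 13.8. ABCG8, likewise picked after its values were seen, had 3.80 and 2.02 in the p4 and p5 gut. It was not called (log2 fold change 0.19, limma adjusted p = 0.708).

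In liver against gut, 3 of the 13 genes were higher and 4 lower, where 3.31% of all genes were called higher and 3.77% lower. APOM, an apolipoprotein of high-density lipoproteins, had 1134, 463 and 857 normalized TPM in the p4, p5 and p6 livers and 17.7 and 0.604 in the p4 and p5 gut (log2 fold change 7.13, limma adjusted p = 0.00397). LRP1, an endocytic receptor that takes up remnant lipoproteins in hepatocytes, had 168, 133 and 103 in the livers and 29.0 and 21.2 in the gut (log2 fold change 2.37, limma adjusted p = 0.00586). PLTP, which moves phospholipid between lipoproteins, had 115, 51.0 and 120 in the livers and 38.0 and 28.5 in the gut (log2 fold change 1.41, limma adjusted p = 0.0460). The 4 genes lower in liver were MOGAT2, CD36, ABCG5 and MTTP, with log2 fold changes of -7.16, -4.25, -3.64 and -1.12. MTTP in the p4, p5 and p6 livers was at 1.47, 2.18 and 1.53 normalized TPM, far from the level of APOB. Against all other samples, LRP1 and APOM were the only 2 of the 13 that were higher in liver, where 2.29% of all genes were called.

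The lungs differed strongly among the animals. In the p4 lung the 5 genes stood at 0.228% (APOA2) to 0.431% (APOB) of the liver mean, with ALB at 0.284%, ITIH3 at 0.332% and ITIH2 at 0.335%. In the p5 lung they stood at 16.2% (ALB), 19.1% (APOB), 18.3% (APOA2), 7.72% (ITIH2) and 16.4% (ITIH3). The p6 lung had 12.1%, 13.9%, 14.3%, 5.54% and 12.002% for the same genes in the same order. The p5 lung was thus above the p6 lung for each gene, and ITIH2 was the lowest of the 5 in both. This rank depended on the use of the liver mean. Against the p5 liver alone, ITIH2 in the p5 lung was at 17.97%, above ITIH3 at 17.46%.

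**Figure D4:**
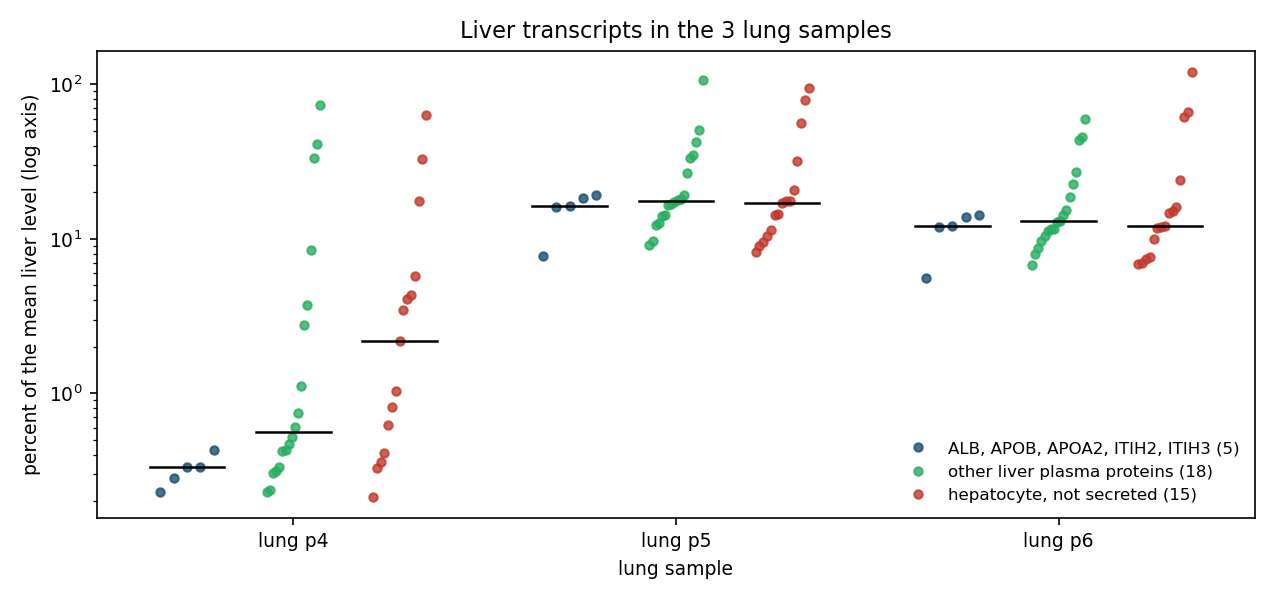
Level of each of the 5 genes in the p4, p5 and p6 lung samples as a percentage of the mean of the 3 liver samples, on a log axis. The 5 genes lie between 0.228% and 0.431% in the p4 lung, and between 5.54% and 19.1% in the p5 and p6 lungs.

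Relative to the liver of the same animal, the p4 lung had 0.189% to 0.337% for the 5 genes, the p5 lung 17.5% to 25.4% and the p6 lung 6.33% to 18.5%. The highest of these percentages was 1.78, 1.45 and 2.93 times the lowest in the p4, p5 and p6 lungs. In the p4 and p5 gut it was 7252 and 738 times the lowest, with the animals of the titles. ALB and APOA2 were the most abundant in every lung and liver sample. APOB exceeded ITIH2 in the p5 and p6 lungs and in the p5 liver, and ITIH2 exceeded APOB in the p4 lung and in the p4 and p6 livers. In the p5 animal, in which ITIH2 in liver was low, ITIH2 was 1.55 times ITIH3 in lung and 1.50 times in liver. In the p4 animal it was 3.31 times ITIH3 in lung and 4.09 times in liver. The p6 animal differed, with 1.52 times in lung and 4.10 times in liver.

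All 5 genes were higher in lung than in brain, heart and skin, by 5.83 (ALB, limma adjusted p = 0.00664), 5.48 (APOB, limma adjusted p = 0.00245), 4.76 (APOA2, limma adjusted p = 0.0136), 4.66 (ITIH2, limma adjusted p = 0.00644) and 4.80 (ITIH3, limma adjusted p = 0.00964) on the log2 scale, with SEs of 0.96 to 1.21. In this comparison 4.25% of all genes tested were called higher in lung. The p5 and p6 lungs exceeded every brain, heart and skin sample for each gene, whereas the p4 lung stayed below the highest skin sample for each gene. APOA2 and ITIH3 were lost without the p5 lung (limma adjusted p = 0.0801 and 0.0583) or the p6 lung (limma adjusted p = 0.0864 and 0.0636). With the p4 lung as the only lung sample, assumed to vary like the other organs, none of the 5 passed by limma and 1 had an unadjusted p below 0.05. The log2 fold changes were then 2.10 (ALB), 2.08 (APOB), 0.68 (APOA2), 1.86 (ITIH2) and 1.37 (ITIH3), with limma adjusted p values of 0.180 to 0.724. The p5 and p6 samples were left out together after the data had been seen.

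Other hepatocyte genes had medians near those of the 5 genes in the p5 and p6 lungs and above them in the p4 lung. For the 15 hepatocyte markers without a secreted product that averaged at least 10 normalized TPM in liver, the median was 2.18%, 17.1% and 12.1% of the liver mean in the p4, p5 and p6 lungs. For 18 other plasma protein genes kept by the same liver minimum it was 0.562%, 17.6% and 12.96%. Of the 18 hepatocyte markers tested, 9 were higher and 2 lower in lung than in brain, heart and skin, where 4.25% of all genes were called higher and 6.84% lower, and 2 were higher without the p5 and p6 lungs, where 2.05% of all genes were called. The median of the 15 markers was lowest in the p4 lung and highest in the p5 lung, an order that the 5 genes shared. These markers were kept by their liver level, which is also the denominator. Markers below the liver minimum are left out, so the medians do not describe the whole list. Single markers among the 15 ranged from 0.214% to 63.2% of the liver mean in the p4 lung. The range was 8.19% to 94.3% in the p5 lung and 6.82% to 120% in the p6 lung. Some genes of other tissues also differed among the lungs. The 6 muscle markers summed to 66.9 to 703 normalized TPM in lung, with MYH1 at 30.7, 491 and 288 in p4, p5 and p6. LCP1, a leukocyte marker, had 27.8, 138 and 113. The muscle markers TNNT2 and NKX2-5 went the other way and were highest in the p4 lung. The lower level in the p4 lung was thus not particular to liver genes. The part of any of these markers in the lung result was not tested.

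Outside liver, gut and lung, the 5 genes kept nearly the same proportions as in liver in the p4 skin and heart. In the p4 skin they stood at 0.334% to 0.432% of the p4 liver and in the p4 heart at 0.0516% to 0.0722%. In brain they spread further, at 0.0112% to 0.0421% of the liver of the same animal in p4 and 0.0803% to 0.203% in p6. ITIH2 was 4.31 and 4.29 times ITIH3 in the p4 skin and heart, against 4.09 times in the p4 liver. It was 1.56 and 2.23 times ITIH3 in the p4 and p6 brain, against 4.09 and 4.10 times in the livers of these animals. In the p6 heart and the p6 skin, APOA2 at 72.8 and 237 normalized TPM was 0.160% and 0.522% of the p6 liver while the other 4 genes were at 0.0236% to 0.0459% in heart and 0.0517% to 0.120% in skin. There APOA2 was 65.9 and 70.5 times APOB, against 16.2 times in the p6 liver. The percentages use the animals of the titles, and the second heart sample has another animal in the study's sample table. These ratios were looked at after the values had been seen and were not tested.

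**Figure D5:**
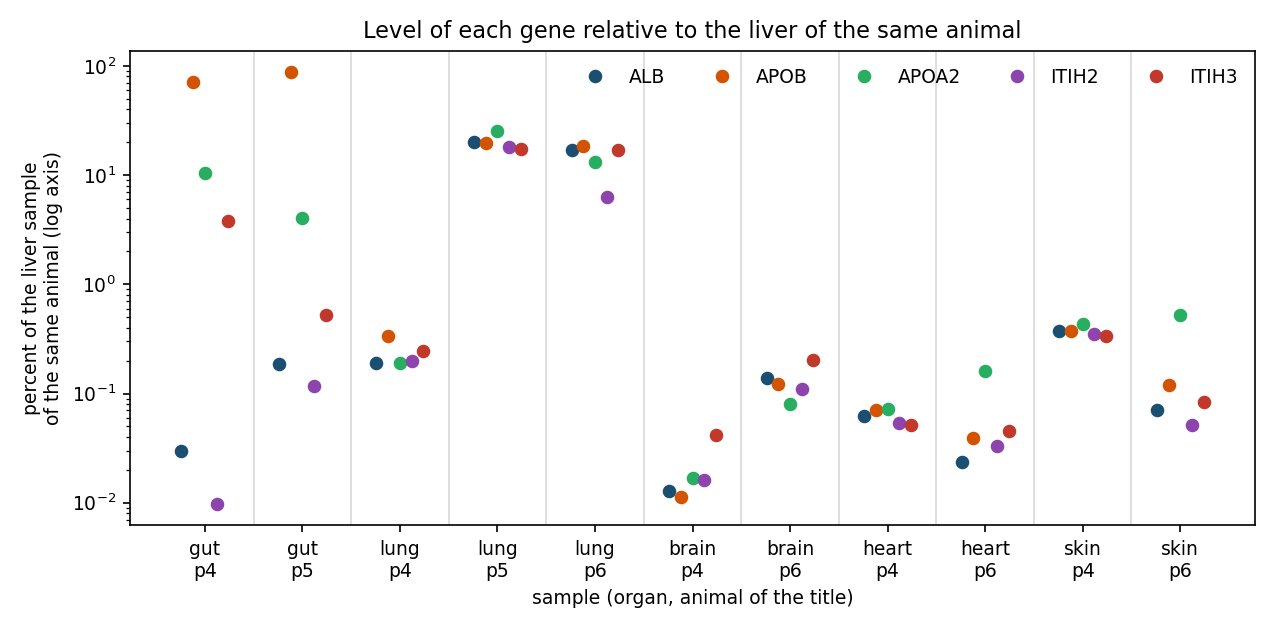
Level of each of the 5 genes in every sample outside liver as a percentage of the liver sample of the same animal by the titles, on a log axis. The 5 genes lie close together in the p4 lung, p5 lung, p4 heart and p4 skin, while the gut samples span 738-fold or more and APOA2 stands out in the p6 heart and skin.

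By organ mean, ALB decreased in the order liver, lung, skin, gut, brain and heart. The lung samples overlapped with skin, and skin, gut, brain and heart overlapped with each other. APOB followed the order liver, gut, lung, skin, heart and brain, in which liver overlapped with gut, and lung with skin. Skin, heart and brain also overlapped with each other. For APOA2 the order was liver, lung, gut, skin, heart and brain. Its gut samples, with 1210 and 5160 normalized TPM, fell within the range of the lung samples. Lung also overlapped with skin, and heart with brain. For ITIH2 lung and skin came after liver and overlapped. Gut had the lowest mean, at 2.10 ± 1.51 (SD, n = 2), but overlapped with brain, heart and skin. For ITIH3 gut came after liver and lung, at 53.1 ± 62.0 (SD, n = 2), and overlapped with lung. Lung overlapped with skin, and skin, brain and heart overlapped at the low end.

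Other plasma proteins of the liver were mostly higher in liver. Of 33 genes listed, 20 were found and tested, and 16 were higher in liver than in all other samples (median log2 fold change 5.81), where 2.29% of all genes tested were called. In liver against gut 17 of 20 were higher, where 3.31% of all genes were called. FGA, the fibrinogen alpha chain, had 10220, 2844 and 6543 normalized TPM in the p4, p5 and p6 livers and 18.6 and 19.5 in the p4 and p5 gut (log2 fold change 8.16, limma adjusted p = 0.000129). GC, the vitamin D-binding protein, had 2123, 1114 and 1470 in the livers and 20.5 and 3.39 in the gut (log2 fold change 7.29, limma adjusted p = 0.00301). Like ITIH3, GC was higher in the p4 than in the p5 gut. KNG1, the kininogen precursor, and TF, the iron carrier transferrin, were also higher in liver than in gut (log2 fold changes 7.65 and 7.21, limma adjusted p = 0.00292 and 3.51e-07). TF was also high in every lung sample, where it had 25997, 14774 and 15972 normalized TPM in p4, p5 and p6, against 46295, 26706 and 32253 in the livers, and it was called neither in liver against all other samples (limma adjusted p = 0.1004) nor in liver against lung (limma adjusted p = 0.173). In gut against brain, heart and skin, 0 of the 20 passed by limma and 1 was higher at an unadjusted p below 0.05, where 6.61% of all genes were called.

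Among the genes related to the heavy chains and to hyaluronan, 9 of 18 listed were found and 8 tested, and 2 were higher in liver than in all other samples, where 2.29% of all genes were called. ITIH4, a heavy chain family member that does not bind bikunin, had 2090, 2173 and 951 normalized TPM in the p4, p5 and p6 livers, 5.84, 374 and 275 in the lungs and 4.87 and 3.92 in the p4 and p5 gut (log2 fold change 6.75, SE 1.29, limma adjusted p = 0.00778). Its gut level was low as for ITIH2. STAB2, the hyaluronan scavenger receptor of liver sinusoidal endothelium, had 38.2, 29.6 and 32.4 in the livers and at most 6.91 elsewhere (log2 fold change 2.94, limma adjusted p = 0.000156). CD44, a hyaluronan receptor of many cell types, had 24.4, 55.8 and 28.5 in the livers and 12.8 to 78.9 elsewhere and did not pass (limma adjusted p = 0.966).

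Transcription factors that control hepatocyte genes were also present in other organs. Of 7 tested from a list of 17, 0 passed in liver against all other samples by limma, where 2.29% of all genes were called, and 2 were higher at an unadjusted p below 0.05. FOXA2 had 38.3, 43.0 and 21.5 normalized TPM in the p4, p5 and p6 livers. In the p4 and p5 gut it had 11.6 and 5.55 (log2 fold change 1.90, limma adjusted p = 0.00903). In the p4, p5 and p6 lungs FOXA2 had 16.6, 29.7 and 26.3, which overlapped with liver (limma adjusted p = 0.558). NR1H4, the bile acid receptor, had 35.2, 22.2 and 17.4 in the livers and 65.1 and 30.5 in the gut, with overlapping samples (limma adjusted p = 0.498). In gut against brain, heart and skin, 4 of the 7 were higher, where 6.61% of all genes were called, including NR1H4 (log2 fold change 4.22, limma adjusted p = 0.000157).

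The genes whose log2 levels followed those of ALB most closely over the 14 samples were ITIH2 (Pearson r = 0.988), the complement component C3 (0.986), the secreted chemoattractant RARRES2 (0.984), FGA (0.980) and HAO1, a liver enzyme of glyoxylate metabolism (0.977), of 6933 genes compared. For APOB they were CIDEB, a lipid droplet protein of hepatocytes and enterocytes (0.966), UROC1, an enzyme of histidine breakdown (0.957), the glucokinase regulator GCKR (0.957), TMEM82 (0.957) and the phosphatase PTPN6 (0.956). CIDEB had 783, 418 and 1034 normalized TPM in the p4, p5 and p6 livers and 860 and 615 in the p4 and p5 gut, and thus shared the overlap of both organs. For the mean of ITIH2 and ITIH3 they were GC (0.995), FGA (0.991), KNG1 (0.990), the fetuin AHSG (0.987) and CYP2B6 (0.987). Among the 5 genes themselves, r was 0.99 between ALB and ITIH2 and 0.93 between APOB and APOA2, and 0.64 between APOB and ITIH2. The points share animals and organs, and the liver samples lie far from most others, so these values describe likeness only.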

How the data were processed

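Poly(A) RNA of the 14 samples was sequenced. Per the study's methods, reads were mapped with bwa mem to 1 transcript per annotated gene, the longest, from a hybrid assembly of animal p4, and counted with featureCounts. The authors deposited TPM values, which sum to 1000000 in each sample. How the TPM were computed is not given in the sources used here. The study states a sequencing depth per sample, but TPM keeps no counts, so the number of reads behind each value is unknown. No genome position was assigned. Here, TPM were scaled by median ratios and tested as log2(normalized TPM + 1) with limma 3.58.1 (R 4.3.3, trended variances, Benjamini-Hochberg adjustment), in place of the count test of the study. Genes with at least 1 TPM in at least 2 samples were tested (16317 of 18924). Tests other than liver against all others used a model of 6 organs. Scripts were tested on simulated data. All genes of the rule were named, as were the 3 genes of each list with the highest liver mean, the 2 with the largest fold change, and the 5 most alike genes. A gene that this rule names is not reported here. Members and lists were chosen with earlier results of these data known. Samples are single organs of 3 animals, and p-values measure the spread between these samples.

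Organs of 1 animal share a number. Deviations from organ means correlated with a median of 0.160 over 28 same-animal pairs and -0.077 over 53 others. The second gut and heart samples have another animal in the study's sample table than in the titles, so both blocks were tried. Percentages of the same animal's liver were computed with the animals of the titles only.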

Additional observations from a re-analysis of the deposited data

How the results depend on the processing

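The number of the 5 genes called ranged from 1 to 4 in liver against all other samples, from 0 to 5 in liver against lung, from 2 to 4 in liver against gut, from 1 to 3 in gut against brain, heart and skin and from 3 to 5 in lung against brain, heart and skin when 1 sample was left out. In liver against lung, 1 gene was called with a pseudocount of 0.1, without a filter or with quantile normalization. There 464, 506 and 511 of all genes were called. With a pseudocount of 5 or a filter on the mean TPM 3 genes were called, where 409 and 555 of all genes were called. On the named organs only, 0 genes were called (5 with an unadjusted limma p below 0.05). Numbers of all genes called in further settings are given below. A replicate block by the animal of the title left 3, 2, 3, 2 and 5 genes called in these comparisons in order. The block by the sample table gave counts of 3, 1, 2, 2 and 5. The numbers of all genes called under these blocks are not given here, so the counts cannot be read as particular to the 5 genes.

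APOB in gut as a percentage of liver was 87.9% in the main analysis. It was 116% on TPM as deposited, 65.7% with quantile normalization and 79.2% against the same animal's liver, with the animals of the titles. With 1 liver sample left out it was 78.1% to 102%. The lung medians were 0.197% (p4) and 17.1% (p6) against the same animal's liver and 24.8% (p5) with quantile normalization. The log2 fold change of APOB in liver against gut reversed to -0.25 on TPM as deposited and -0.082 with the block by the sample table (-0.038 to 0.35 with 1 sample left out). That of ALB in gut against brain, heart and skin reversed to -0.22 on TPM as deposited and -0.40 with the block by the title (-0.55 to 1.15 with 1 sample left out). Neither gene was called there. TPM as deposited moved the median of all genes by -0.38, 0.19, -0.29, -0.41 and -0.86 in the 5 comparisons. Of the values of single genes under alternatives, 572 kept their direction and call, 51 lost and 18 gained the call, and 9 reversed.

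The number of all genes called higher was 373 in liver against all others, but 178 on TPM as deposited, 750 with 6 organs, and 183 and 225 without the p4 or p6 liver. It was 540 in liver against gut, but 359 on TPM as deposited, 354 with a pseudocount of 5, 171 on the named organs and 331 without the p5 gut. It was 532 in liver against lung, but 49 on the named organs and 290 without the p4 liver. It was 1078 in gut, but 681 on TPM as deposited, and 693 in lung, but 210 on TPM as deposited, 334 without the p5 and p6 lungs and 450 without the p6 lung. The causes were not tested. The number of reads behind each value is unknown, so no counting error could be given for the low levels in gut, brain, heart and skin.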
